A study of Homo sapiens with 39 samples.

Results

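The comparison set the HCT116 line that carries HNF4alpha11-GFP against the line that carries HNF4alpha8-GFP. Its members were the 3 RNA-seq libraries of the isoform 11 line and the 3 libraries of the isoform 8 line, 6 of the 39 libraries of the series, taken by the isoform named in the labels. HCT116 is a human colorectal cancer cell line. Every line of the series was made in HCT116 Flp-In T-REx host cells, in which a construct sits at a single site and is switched on by doxycycline, and each construct ends in GFP. All groups, the parental cells without a construct included, received 2.5 µg/ml doxycycline for 48 h without selection antibiotics. Before induction the parental cells were kept in blasticidin and zeocin and the isoform lines in blasticidin and hygromycin B. Each isoform was studied in 1 stable line and no group carried GFP alone, so isoform and line cannot be told apart. The labels do not say that the 3 libraries of a line came from separate cultures. In the main fit p-values measure the spread between libraries of the same group, pooled over all 39 libraries. This spread may be technical.

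HNF4A is a nuclear receptor that binds DNA as a dimer and drives genes of the liver, intestine, kidney and pancreatic islet. Its gene is read from promoters P1 and P2, and alternative exons give proteins that share the DNA-binding and ligand-binding domains and differ at the ends. In the standard nomenclature isoforms 8 and 11 are both P2 products with the same insertion in the C-terminal region and differ at the N-terminus. The comparison asks which transcripts differ when the N-terminus differs and the C-terminal form is the same. The isoform classes come from that nomenclature and not from the labels.

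HNF4A itself was measured first. The 12 rows named for its isoforms were summed to 1 value for the gene, which lies at chr20:44355700-44434596 (GRCh38, plus strand). The isoform 11 libraries held 615, 616 and 610 TPM (transcript abundance, corrected for length and scaled to a common total) and the isoform 8 libraries 737, 701 and 763 TPM, against 31.5 TPM in the parental cells. The isoform named in the label had between 99.72% and 99.89% of this sum in each of the 6 libraries, so the constructs matched the labels. All isoform 11 values were below all isoform 8 values, with a log2 difference of -0.26 ± 0.137 (SE) and an adjusted p of 0.225 in limma. An exact two-sided permutation test gave p = 0.1, the smallest that 3 against 3 libraries allow. Replicate 1 of the isoform 3 line, with 407 TPM of HNF4A against 833 and 772 in its group, enters that limma test through the shared spread, and without it the adjusted p was 0.0111. Construct mRNA was thus not shown to be equal in the lines, and its part in the differences below was not tested.

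Few genes separated the lines. Of 45434 rows other than HNF4A, 34094 were above 0 TPM in at least 1 of the 6 libraries, and 15002 reached 1 TPM on average across all 39 libraries and were tested. Calls required both an adjusted p under 0.05 in limma (Benjamini-Hochberg) and a difference of at least 1 on the log2(TPM + 1) scale. This gave 26 genes, 0.173% of those tested: 4 higher in isoform 11 (0.0267%) and 22 lower (0.147%). In all 26 the 3 libraries of the lines did not overlap, which also held for 31.2% of all tested genes. The median absolute difference was 0.10 and 97% of genes differed by less than 0.5. A difference of at least 1, whatever its p, was present in 102 tested genes, 43 higher and 59 lower. The widest of these, in the ribosomal protein pseudogene RPL21P16 (3.89 ± 1.91, adjusted p = 0.185), was within the spread of the libraries.

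**Figure D1:**
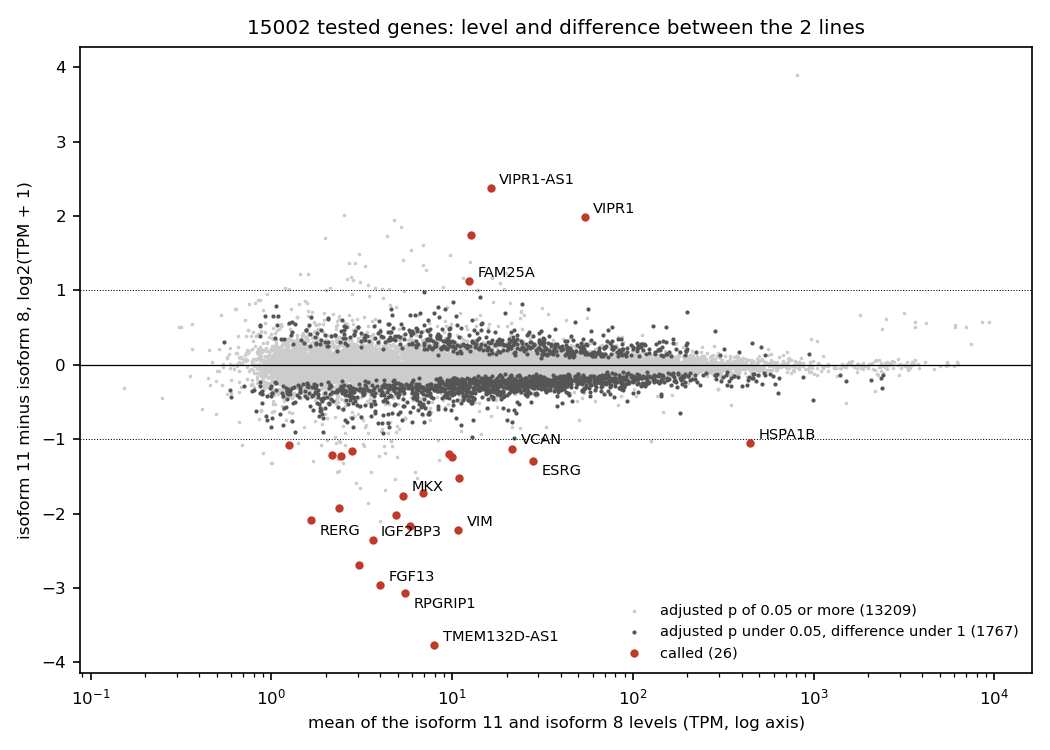
Mean level of the isoform 11 and isoform 8 lines (TPM, log axis) against their difference on the log2(TPM + 1) scale, for 15002 genes. Red points are the 26 called genes, of which 22 lie below -1, most of them with a mean level under 20 TPM, and 4 lie above 1.

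At an adjusted p under 0.05 alone, 519 genes were higher (3.46%) and 1275 lower (8.50%), 12.0% of those tested. That split depended on scaling: with median-of-ratios scaling of the TPM it was 1117 higher and 1002 lower, and with mitochondrial transcripts left out 923 higher and 1095 lower. Without replicate 3 of isoform 11 it was 361 higher and 520 lower, and without replicate 3 of isoform 8 it was 359 and 561. The median difference over all genes was -0.04 as deposited and 0.00 after median-of-ratios scaling. Small differences are therefore given beside that median.

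VIPR1 rose by the widest margin among the protein-coding genes. It encodes the VPAC1 receptor, a G-protein-coupled receptor for vasoactive intestinal peptide, and lies at chr3:42489299-42537573. The isoform 11 libraries held 96.8, 86.6 and 78.1 TPM, the isoform 8 libraries 19.0, 24.1 and 20.5 TPM and the parental cells 3.33 TPM. The lines were far apart and both were above the parental cells. The log2 difference was 1.99 ± 0.159 (SE), 3.98-fold on the TPM + 1 scale, with an adjusted p of 5.34e-10. VIPR1-AS1, an RNA from the opposite strand of the same locus, was also called higher, at 50.7, 24.5 and 10.7 TPM against 1.98, 4.62 and 5.61 TPM (log2 difference 2.37 ± 0.621, adjusted p = 0.0121). Its call was lost in 5 of 15 alternatives, among them those without replicate 1 of isoform 11 (adjusted p = 0.0785) and without replicate 1 of isoform 8 (0.0737). Since the use of strand in the authors' counting is not stated, reads of this pair cannot be told apart.

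The other 2 called genes that rose were less certain. FAM25A, a gene of a family with near-identical copies between which reads may be split, stood at 13.1, 20.8 and 18.6 TPM in isoform 11 and at 7.87, 6.97 and 7.21 TPM in isoform 8 (log2 difference 1.13 ± 0.263, adjusted p = 0.00535). Without replicate 2 of isoform 11 its difference was 0.99 and no longer reached 1. SNORA103, a small nucleolar RNA named after its values were seen, had 13.9, 18.4 and 28.0 TPM against 2.85, 8.18 and 5.25 TPM (adjusted p = 0.0474) and was called in 7 of 15 alternatives. Such short RNAs are poorly captured by poly(A) selection.

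Below the size for a call, the clearest rises were in genes of several functions. SRXN1, which encodes sulfiredoxin, the enzyme that reactivates oxidised peroxiredoxins, had 256, 248 and 237 TPM in isoform 11 against 151, 146 and 155 TPM in isoform 8 (log2 difference 0.71 ± 0.0774, adjusted p = 2.37e-07); the parental cells had 69.6 TPM. SUN1, a protein of the inner nuclear membrane that ties the nucleus to the cytoskeleton, had 185, 189 and 166 TPM against 124, 123 and 131 TPM (0.51 ± 0.0415, adjusted p = 7.72e-10). HPN, the membrane serine protease hepsin, had 8.85, 9.62 and 10.2 TPM against 4.28, 4.35 and 4.44 TPM (0.98 ± 0.121, adjusted p = 2.74e-06). For HPN the parental level of 7.09 TPM lay between the lines, whereas for SRXN1 and SUN1 both lines were above the parental cells.

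The remaining genes named by rule rose too, and their libraries did not overlap between the lines. ALDH3B1, an aldehyde dehydrogenase, had 15.7 TPM against 9.99 TPM, and IDNK, a gluconate kinase, 7.39 TPM against 4.29 TPM (log2 differences 0.61 and 0.66). MALL, a membrane raft protein, EHD1, which drives endocytic recycling, and BCAR1, the focal adhesion adaptor p130Cas, had log2 differences of 0.46, 0.34 and 0.39. BCL6B, a zinc-finger repressor, and HSH2D, an SH2 adaptor, had 0.45 and 0.48. Their adjusted p-values lay between 6.97e-07 and 2.04e-05.

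Among the 22 genes that fell, several were close to 0 in isoform 11. FGF13, an intracellular FGF-like protein that binds sodium channels and microtubules (chrX:138614731-139222777), had 0.238, 0.117 and 0.0506 TPM in isoform 11 and 7.99, 6.95 and 8.60 TPM in isoform 8. The groups were far apart, with a log2 difference of -2.96 ± 0.13 and an adjusted p of 1.56e-16. RERG, a small GTPase of the Ras family that restrains growth (chr12:15107783-15348675), was listed at 0.0213, 0 and 0.0187 TPM in isoform 11 and at 3.66, 2.90 and 3.41 TPM in isoform 8 (log2 difference -2.09 ± 0.098, adjusted p = 7.54e-16). The parental cells lay between the lines for both genes, at 2.34 TPM of FGF13 and 1.10 TPM of RERG.

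Another 3 genes of this kind stood outside the naming rule and are given because their values were seen. RPGRIP1, a protein of the photoreceptor connecting cilium (chr14:21287939-21351301), had 0.416, 0.445 and 0.276 TPM in isoform 11 and 10.1, 11.3 and 10.4 TPM in isoform 8 (log2 difference -3.07 ± 0.129, adjusted p = 7.04e-17). IGF2BP3, an oncofetal RNA-binding protein that stabilises target mRNAs (chr7:23310209-23470467), had 0.375, 0.595 and 0.59 TPM against 6.48, 6.70 and 7.10 TPM (-2.35 ± 0.0869, adjusted p = 3.7e-18). TMEM132D-AS1, an antisense RNA on chromosome 12, had 0.301, 0 and 0.384 TPM against 16.9, 12.6 and 17.6 TPM (-3.77 ± 0.323, adjusted p = 2.28e-09). In each, every isoform 8 library was above the parental mean of 3.37, 1.63 and 4.57 TPM, and every isoform 11 library was below it. On a log2(TPM + 1) scale these differences understate the ratio of TPM, since the lower group is near 0.

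VIM was the most abundant of the protein-coding genes that fell by more than 2 on this scale. It encodes vimentin, the intermediate filament of mesenchymal cells, and lies at chr10:17228259-17237593. Isoform 11 had 2.90, 3.05 and 3.58 TPM and isoform 8 had 18.5, 18.3 and 18.7 TPM, a log2 difference of -2.23 ± 0.218 (adjusted p = 3.42e-08). The parental cells had 14.1 TPM, close to isoform 8 and above isoform 11. MKX, the Mohawk homeobox factor of tendon development, is on the same chromosome arm at chr10:27672875-27746060 and had 1.30, 2.02 and 2.48 TPM against 9.66, 8.06 and 8.70 TPM (-1.76 ± 0.139, adjusted p = 5.34e-10). Its neighbours MPP7, a scaffold protein of cell junctions (15.6 TPM against 27.4 TPM, -0.77, adjusted p = 2.96e-08), and ARMC4, a ciliary protein (1.05 TPM against 2.83 TPM, -0.90, adjusted p = 1.99e-07), looked up after the values of MKX were seen, were also lower. Of the 32 tested genes between 20000001 and 30000000 on chromosome 10, MKX included, 8 fell and 1 rose, with a median of -0.09. At the same adjusted p under 0.05, 8.50% of all tested genes fell and 3.46% rose, with a median of -0.04.

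Further called genes encode secreted, matrix and surface proteins. PDGFC, a ligand of platelet-derived growth factor receptors, had 6.05, 5.39 and 5.09 TPM in isoform 11 and 15.0, 14.3 and 14.02 TPM in isoform 8 (-1.25 ± 0.116, adjusted p = 1.41e-08). VCAN, the matrix proteoglycan versican, had 15.5, 14.7 and 9.59 TPM against 30.2, 25.8 and 33.2 TPM (-1.13 ± 0.149, adjusted p = 7.52e-06), and fell short of 1 without replicate 3 of isoform 11 (-0.92). SUCNR1, the receptor for extracellular succinate, had 1.08, 1.23 and 0.812 TPM against 4.06, 3.12 and 4.20 TPM (-1.23 ± 0.15, adjusted p = 1.99e-06). For SUCNR1 both lines were below the parental 6.24 TPM. CAVIN2, a coat protein of caveolae, followed the same order, with 0.867, 0.729 and 1.13 TPM, then 3.36, 3.39 and 3.45 TPM, and 9.71 TPM in the parental cells (isoform 11 minus isoform 8 -1.21 ± 0.17, adjusted p = 1.7e-05).

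**Figure D2:**
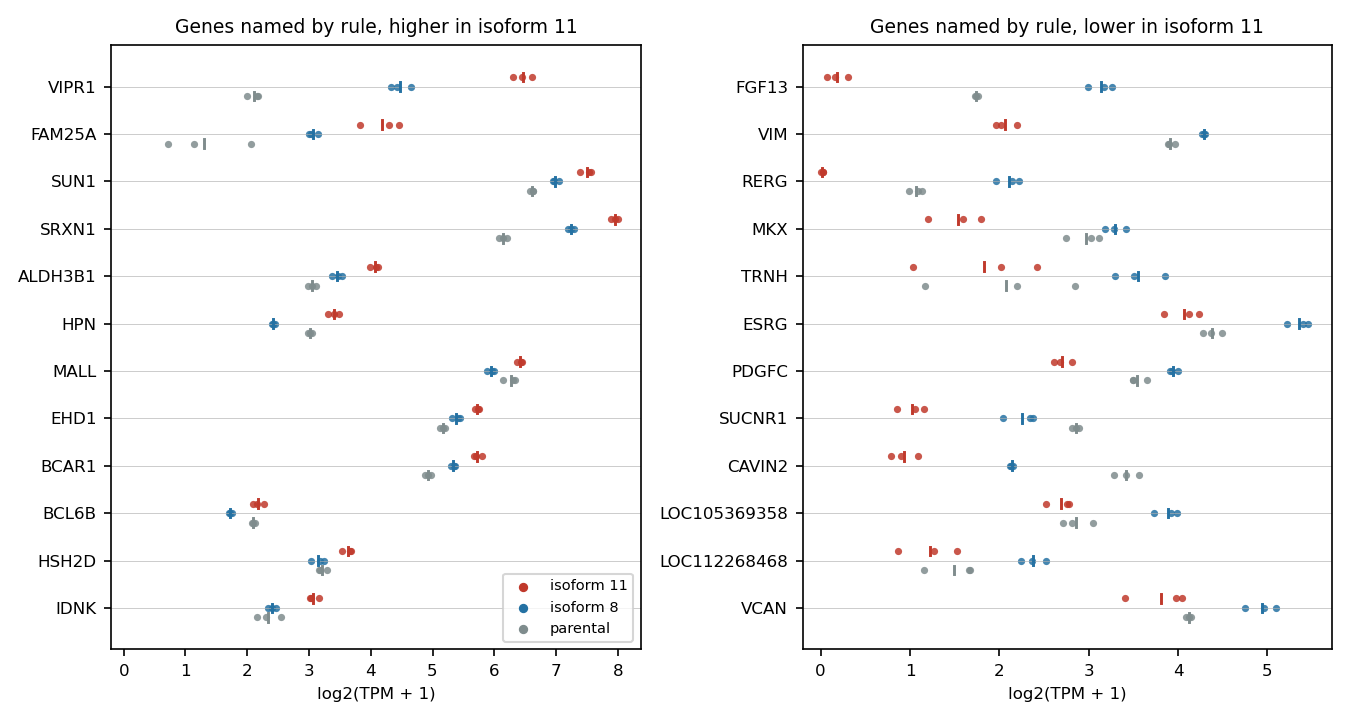
Level on the log2(TPM + 1) scale of each library (points) with the group mean (bars) for the 12 genes per direction named by rule, in isoform 11, isoform 8 and the parental cells. The 3 red points lie clear of the 3 blue points in every gene, and for FGF13 and RERG they sit near 0.

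Noncoding RNAs made up much of the rest. ESRG, a long RNA transcribed from an endogenous retrovirus and known from pluripotent cells, had 17.8, 16.5 and 13.4 TPM in isoform 11 and 41.3, 36.2 and 42.7 TPM in isoform 8 (-1.29 ± 0.0857, adjusted p = 7.62e-12). The parental cells had 19.9 TPM, and isoform 8 shared its higher level with isoforms 1, 2 and 12 (45.1, 75.4 and 39.8 TPM). The uncharacterised loci LOC105369358 (-1.20) and LOC112268468 (-1.16) had the same order. They stood at 5.45 and 1.37 TPM in isoform 11, 13.8 and 4.21 TPM in isoform 8 and 6.29 and 1.86 TPM in the parental cells. Like ESRG, both were higher in isoforms 1 (14.4 and 4.92 TPM), 2 (21.9 and 7.33 TPM) and 12 (13.1 and 3.76 TPM). Whether reads are shared between ESRG and these loci was not tested. LOC112268468 fell short of 1 without replicate 3 of isoform 11 (-0.98). LOC105374060, named after its values were seen, was at 0.441 TPM against 2.05 TPM (-1.08), and its call was lost in 3 of 14 alternatives. TRNH, the mitochondrial histidine tRNA, had 3.06, 1.04 and 4.37 TPM against 10.4, 13.5 and 8.83 TPM (-1.73 ± 0.465, adjusted p = 0.0145), a call that was lost without replicate 2 of isoform 11 (adjusted p = 0.0884) or of isoform 8 (0.0501).

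The 5 short RNAs called lower (RNU6-611P, SNORA50A, SNORD131, RNA5SP99 and SNORA70G) lie outside the naming rule, and each lost its call in 4 to 7 alternatives. HSPA1B, an inducible heat shock protein of the HSP70 family also outside the rule, had 218, 339 and 323 TPM against 620, 583 and 594 TPM (-1.05 ± 0.274, adjusted p = 0.0118). It lost its call without replicate 1 of isoform 11 (-0.85, adjusted p = 0.0697), and its reads cannot be cleanly parted from HSPA1A, a near-identical neighbour (-0.64, adjusted p = 0.0484). By contrast 12 of the 26 genes were called under every alternative in which they were tested: VIPR1, FGF13, RPGRIP1, TMEM132D-AS1, IGF2BP3, VIM, RERG, MKX, ESRG, PDGFC, CAVIN2 and LOC105369358.

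The levels of these genes across all 13 groups show where isoforms 11 and 8 lie in the series. FGF13 and RPGRIP1 were both high in isoform 8 (7.85 and 10.6 TPM), in isoform 6 (8.34 and 13.3 TPM) and, lower, in the parental cells, and in the other 10 lines neither exceeded 1.23 TPM. Isoform 11 was therefore among the 10 lines with little of either, and isoforms 6 and 8 were the lines above the parental cells. VIM ran from 2.46 TPM in isoform 4 to 30.6 TPM in isoform 6, with isoform 8 (18.5) and isoform 12 (19.7) next to each other below it and isoform 11 (3.18) beside isoform 9 (3.14). RERG was highest in isoforms 5 (7.63) and 12 (7.37), and lowest in isoform 11 (0.0134), next to isoform 2 (0.031). IGF2BP3 was lowest of all groups in isoform 11, at 0.52 TPM, and highest in isoform 1, at 10.2 TPM.

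VIPR1 had the opposite shape: isoform 11 was the highest of the 13 groups at 87.2 TPM, followed by isoform 10 (60.4), isoform 7 (36.9), isoform 9 (23.9) and isoform 8 (21.2). Isoforms 9 and 8 overlapped within their spread. TMEM132D-AS1 was high in isoform 8 (15.7) and isoform 5 (12.0), and was at 4.57 TPM or less elsewhere. PDGFC was low in isoforms 7 and 9 (2.06 and 2.41 TPM) and next lowest in isoform 11 (5.51). HSPA1B was at 599 TPM in isoform 8 and between 165 and 345 TPM in the other 12 groups, isoform 11 (293) included.

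**Figure D3:**
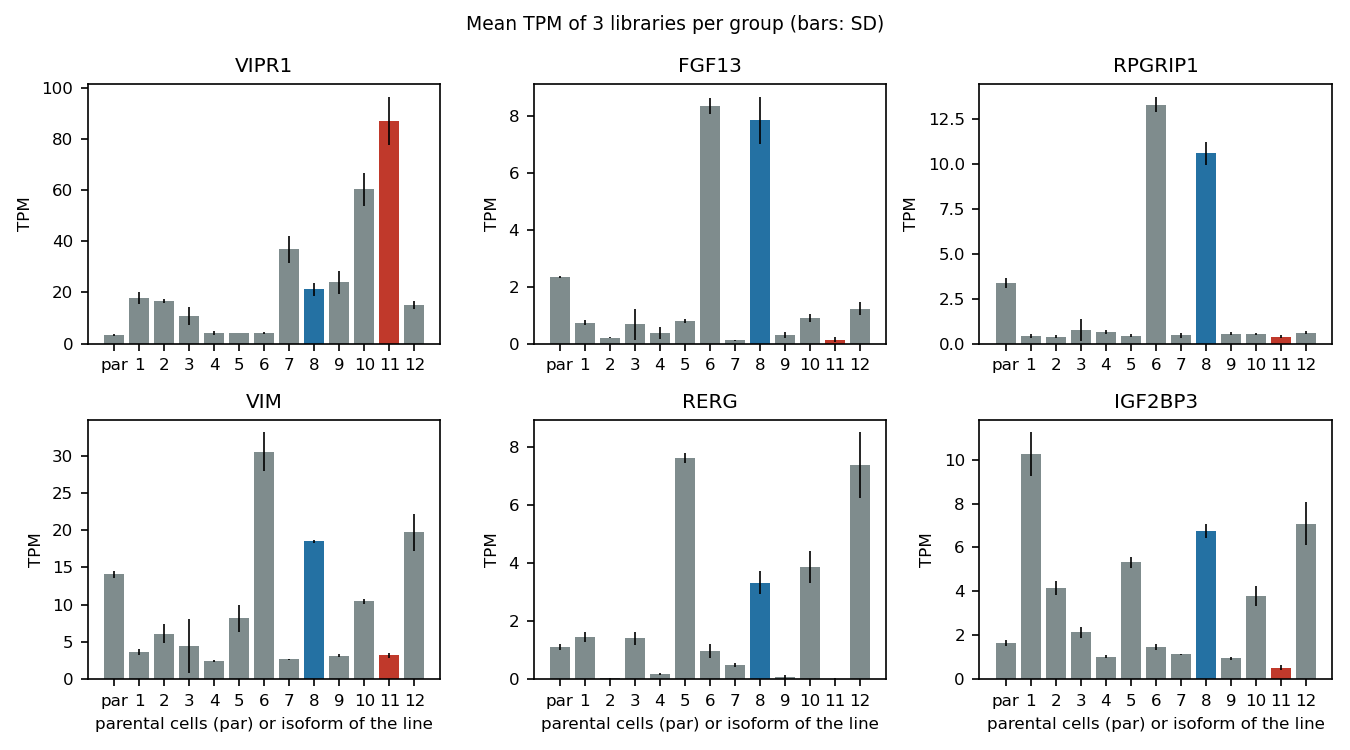
Mean TPM of 3 libraries (bars, with SD) of 6 called genes in the parental cells (par) and the 12 isoform lines, with isoform 8 in blue and isoform 11 in red. FGF13 and RPGRIP1 are high in isoforms 6 and 8, VIM also in isoform 12, and VIPR1 is highest in isoform 11.

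The same N-terminal difference is present between isoforms 10 and 7 and between isoforms 12 and 9, in other libraries, with the other C-terminal forms. Those pairs had 114 called genes (0.760%; 89 higher, 0.593%, and 25 lower, 0.167%) and 81 called genes (0.540%; 67 higher, 0.447%, and 14 lower, 0.0933%), so most calls there were higher, where most calls between isoforms 11 and 8 were lower. Of the 22 genes that fell in isoform 11, between isoforms 10 and 7 1 differed in the same direction at an adjusted p under 0.05, 8 in the opposite direction and 13 in neither. Between isoforms 12 and 9 the counts were 1, 11 and 10. At that threshold the background was 17.4% higher and 8.17% lower genes between isoforms 10 and 7, and 9.13% and 7.54% between isoforms 12 and 9. The median difference of these 22 genes was -1.74 between isoforms 11 and 8, 0.10 between isoforms 10 and 7 and 0.78 between isoforms 12 and 9.

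The change of the difference itself was then tested. In all, 231 genes (1.54%; 34 higher, 0.227%, and 197 lower, 1.31%) were called for a difference between the isoform 11 and 8 pair and the isoform 10 and 7 pair, and 209 genes (1.39%; 34 higher, 0.227%, and 175 lower, 1.17%) against the isoform 12 and 9 pair. At an adjusted p alone the shares were 5.43% higher and 16.8% lower, and 7.53% higher and 12.5% lower. The called genes included 14 and 18 of the 22 genes, and 2 and 3 of the 4 genes that rose. All of these were chosen by the difference between isoforms 11 and 8, which is part of each value. The counts for them therefore cannot be set against the shares of all genes. VIM differed by -2.23 between isoforms 11 and 8 but by 1.65 between isoforms 10 and 7 and by 2.32 between isoforms 12 and 9. RERG had -2.09, 1.71 and 2.98 and IGF2BP3 -2.35, 1.16 and 2.05 in the same order. PDGFC, with -1.25, 2.47 and 2.80, and SUCNR1, with -1.23, 2.27 and 1.58, were also of opposite sign in both other pairs. RPGRIP1 had differences of 0.08 (adjusted p = 0.711) and 0.07 (adjusted p = 0.795) in the other pairs. VIPR1 was higher between isoforms 10 and 7 as well (0.70, adjusted p = 0.00122) and lower between isoforms 12 and 9 (-0.62, adjusted p = 0.00608).

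**Figure D4:**
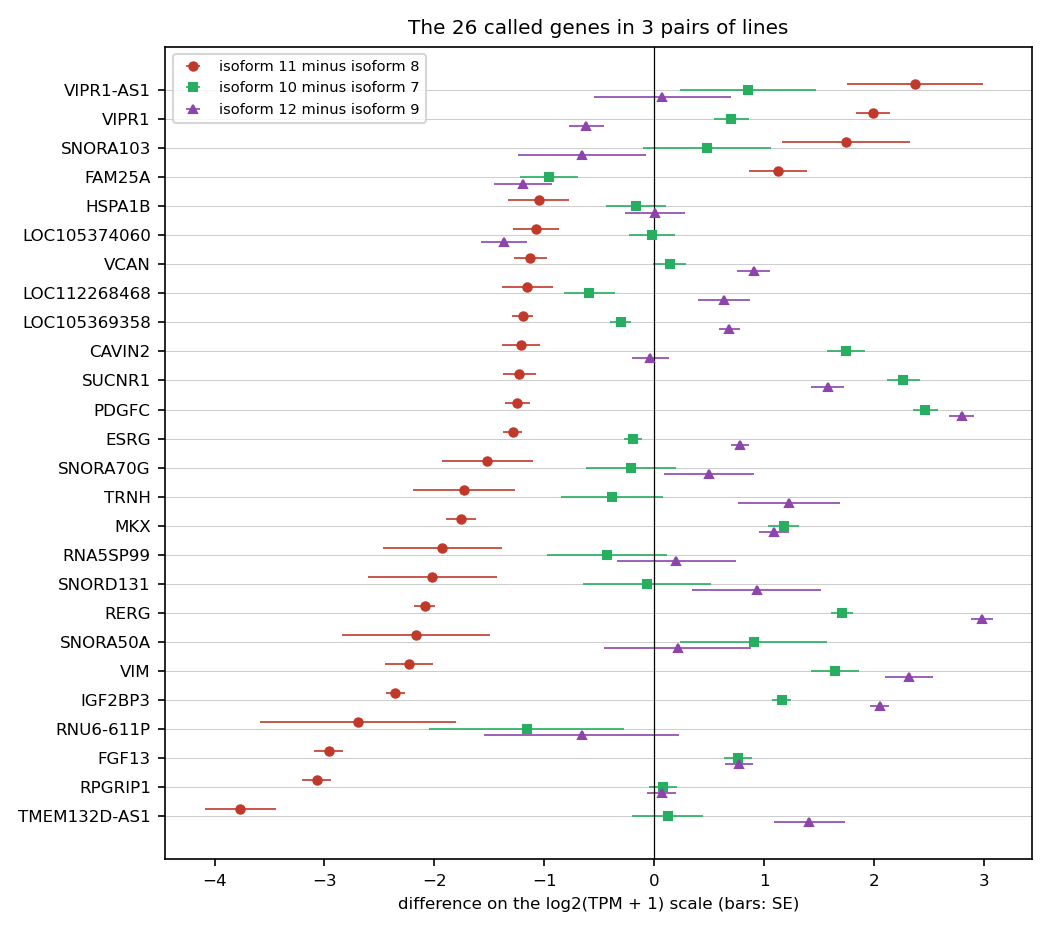
Difference on the log2(TPM + 1) scale (bars, SE) of the 26 called genes between isoforms 11 and 8 (circles), 10 and 7 (squares) and 12 and 9 (triangles). The circles of VIM, RERG, IGF2BP3, PDGFC, SUCNR1, MKX and FGF13 lie below 0 and their squares and triangles above 0.

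Known HNF4A targets of liver and gut were mostly silent in both lines. Of 21 listed targets 5 passed the filter. Of these 2 rose, against 3.46% of all genes higher, none fell and 3 did not pass the test. The median difference of the 5 was 0.40 against -0.04 over all genes. VIL1, the actin bundler of microvilli, had 6.74, 6.80 and 5.66 TPM in isoform 11 and 3.97, 3.92 and 4.19 TPM in isoform 8, above the parental 0.554 TPM (log2 difference 0.55 ± 0.165, adjusted p = 0.0267). LGALS4, an intestinal galectin, had 2.71, 3.64 and 3.17 TPM against 1.85, 1.85 and 2.00 TPM, and 0.137 TPM in the parental cells (0.52 ± 0.169, adjusted p = 0.0415). VIL1 lost the adjusted p in 7 alternatives and LGALS4 in 8, and the count of 2 became 1 without replicate 1 or 3 of isoform 11 and 0 without replicate 2 of isoform 11 or any 1 library of isoform 8. The clotting factor gene F10 (0.40, adjusted p = 0.0668), APOA1 (0.21) and MTTP (0.06) did not pass, and APOB, APOH, TTR and FABP1 were listed at 0 in all 6 libraries.

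Genes of the endoplasmic reticulum chaperone system had the largest share of small declines. Of 14 tested, 10 fell and none rose, against 8.50% of all genes lower, with a median of -0.19 and all 14 below 0. HSP90B1, the resident HSP90, had 559, 575 and 541 TPM in isoform 11 and 665, 664 and 678 TPM in isoform 8 (-0.26 ± 0.044, adjusted p = 0.000208). The disulfide isomerase PDIA4 (-0.22), the secreted factor MANF (-0.21) and SDF2L1 (-0.22), a partner of the chaperone complex, also fell. HSP90B1 was at 702 TPM in the parental cells and PDIA4 at 255 TPM, so isoform 11 was the lowest of the 3 groups for both. The count was 7 with median-of-ratios scaling, 6 without the filter and 5 when only the 6 libraries were fitted. A replicate block gave 12 over all numbered libraries and 0 in the 6 libraries alone, where few degrees of freedom remain. With 1 library left out the count was between 5 and 10. It was 5 in the absence of replicate 3 of isoform 11 or of replicate 1 or 3 of isoform 8. In the absence of replicate 1 of isoform 11 it was 6.

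Cell division genes showed small differences of the same sign, read against 8.50% of all genes lower and a median of -0.04. How many of all tested genes lay below 0 was not counted. All 26 DNA replication genes were lower, from -0.33 to -0.09 with a median of -0.18, and 6 of them fell, among them MCM10 (-0.33, adjusted p = 0.0045) and POLA1 (-0.27, adjusted p = 0.00218), which load and start the replication machinery, and UHRF1 (-0.28), which maintains DNA methylation. All 21 mitosis genes were also below 0, with a median of -0.14, and 3 fell: TOP2A (-0.30), MKI67 (-0.40) and CENPF (-0.35). DNA replication genes summed to 2579 to 2860 TPM in isoform 11 and 2955 to 3158 TPM in isoform 8. Mitosis genes summed to 2148 to 2311 TPM and 2381 to 2538 TPM. Both lines were below the parental cells, with 3438 to 3635 TPM and 2683 to 2850 TPM for these lists. MKI67, the Ki-67 proliferation marker, had 70.6, 63.2 and 46.7 TPM against 76.5, 70.1 and 89.8 TPM, and the lines overlapped. Leaving out 1 library gave 3 to 9 DNA replication genes, with 3 in the absence of replicate 3 of isoform 11 or replicate 1 of isoform 8 and 9 in that of replicate 1 of isoform 11, and 0 to 3 mitosis genes, with 0 in the absence of replicate 3 of either line and 1 in that of replicate 1 of isoform 8. When only the 6 libraries were fitted 2 DNA replication genes and 0 mitosis genes passed, and with a replicate block over all numbered libraries 13 and 5 passed. With that block in the 6 libraries alone 0 of either list passed. With median-of-ratios scaling the medians were -0.13 and -0.10.

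Signalling and lineage lists held few genes that passed, and their counts are read against 8.50% of all genes lower. With a replicate block in the 6 libraries alone VIM was the only member of these lists to pass. Of 12 Wnt targets 4 fell and none rose: the cyclin CCND1 (-0.21), the feedback inhibitors DKK1 (-0.16), NKD1 (-0.28) and AXIN2 (-0.35). That count was 2 without replicate 3 of isoform 11 or replicate 1 of isoform 8, and 1 without replicate 3 of isoform 8 or when only the 6 libraries were fitted. Of 9 YAP and TEAD targets 3 fell (CRIM1, F3 and AMOTL2, -0.25, -0.37 and -0.34), which became 0 without replicate 3 of isoform 11 or when only the 6 libraries were fitted, and 1 without replicate 2 of isoform 11 or replicate 1 or 3 of isoform 8. Among 15 gut and liver transcription factors 3 fell, namely KLF5 (14.4 TPM in isoform 8, 10.1 TPM in isoform 11, -0.47), GATA6 (-0.45) and FOXA1 (-0.40). Only 1 was left without replicate 1 of either line or when only the 6 libraries were fitted. Of 9 mesenchymal genes VIM alone passed the test, and the list median was -0.05. Of 17 genes of the ATF4 and serine synthesis list 3 fell, ASNS (-0.31), PHGDH (-0.30) and CEBPB (-0.30), which became 1 without replicate 1 or 3 of isoform 11 or replicate 3 of isoform 8, and 0 without replicate 1 of isoform 8.

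Metabolic and immune lists had a few rises, read against 3.46% of all genes higher. With a replicate block in the 6 libraries alone IL32 was the only member of these lists to pass. In cholesterol synthesis 3 of 18 genes rose, the mevalonate pathway enzymes MVK (0.19) and MVD (0.27) and the last enzyme of the pathway, DHCR7 (0.18), and the list median was 0.12. That count was 10 with median-of-ratios scaling, 7 with mitochondrial transcripts left out, 5 without replicate 3 of isoform 11 and 2 without replicate 2 of either line. In the lipid droplet list 2 of 14 rose, CIDEB (5.41 TPM against 3.39 TPM, 0.55), which acts in droplet fusion and lipoprotein loading, and the droplet coat protein PLIN3 (0.14), but 1 passed without replicate 2 of isoform 8 and 0 without any other of the 6 libraries. In fatty acid oxidation 2 of 19 rose, ACAA2 (126 TPM against 104 TPM, 0.28) and ACADS (0.21), with 1 left without replicate 1 of either line or replicate 2 of isoform 8, and 4 with median-of-ratios scaling. IL32, a proinflammatory cytokine gene, had 67.0, 73.9 and 71.7 TPM in isoform 11, 42.6, 40.1 and 42.2 TPM in isoform 8 and 0.424 TPM in the parental cells (0.75 ± 0.154, adjusted p = 0.00176), and with TNFAIP3 (0.23) made 2 of 10 genes of the NF-kB list, of which 1 rose without any 1 of the libraries other than replicate 3 of isoform 11. Among 20 glycolysis genes 3 rose, PFKP (0.22) and PFKFB4 (0.24) among them, and 2 fell, HK2 (-0.29) and ENO2 (-0.24), and with median-of-ratios scaling 5 rose. Without replicate 2 or 3 of either line 1 glycolysis gene fell.

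The counts of the remaining lists are read against 3.46% of all genes higher and 8.50% lower. Of 21 interferon response genes 2 rose, IFI35 (0.42) and ISG15 (0.15), and 1 fell, IRF7 (-0.27). There was 1 rise when any 1 of the 6 libraries was left out. No gene of that list fell without replicate 1 or 2 of isoform 11 or 2 or 3 of isoform 8. Of 12 genes of MHC class I presentation 0 passed in limma (2 higher and 2 lower at an unadjusted p under 0.05), while 3 rose with median-of-ratios scaling, 1 rose with mitochondrial transcripts left out or without replicate 3 of isoform 11, and 1 fell without replicate 2 of isoform 11 or with a replicate block over all numbered libraries. CDKN1A, the p53 target that encodes the cell cycle inhibitor p21, was the only 1 of 18 p53 targets to pass (169 TPM against 136 TPM, 0.31 ± 0.0855, adjusted p = 0.0183), with 0 rises without replicate 3 of isoform 11 or replicate 1 or 2 of isoform 8, and 2 without replicate 1 of isoform 11. In the EGF family AREG, which encodes amphiregulin, was the only 1 of 8 (0.32, adjusted p = 0.03), and none passed in 5 of the 6 fits with a library left out, the exception being replicate 3 of isoform 11. DPP4, a peptidase of the brush border, fell (-0.43, adjusted p = 0.00184), the only 1 of 7 brush border genes to pass. With median-of-ratios scaling or mitochondrial transcripts left out 2 brush border genes rose. With a replicate block over all numbered libraries, only the 6 libraries fitted or replicate 1 of isoform 3 left out 1 rose. Among 20 junction and keratin genes CLDN7 rose (0.22) and CLDN2 fell (-0.48), with 4 rises after median-of-ratios scaling, 0 without replicate 3 of isoform 11 and 2 without replicate 1 of isoform 8, and with 3 falls without replicate 2 of isoform 11 and 2 without replicate 2 of isoform 8. The metallothioneins, zinc-binding proteins, had the lowest list median (-0.54 over 5 genes, the zinc exporter SLC30A1 included), but 0 passed in limma (2 lower at an unadjusted p under 0.05). With a replicate block over all numbered libraries 3 fell, and without replicate 1 of isoform 11 1 fell. MT2A ranged from 351 to 662 TPM in isoform 11 and from 863 to 902 TPM in isoform 8 (adjusted p = 0.159).

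**Figure D5:**
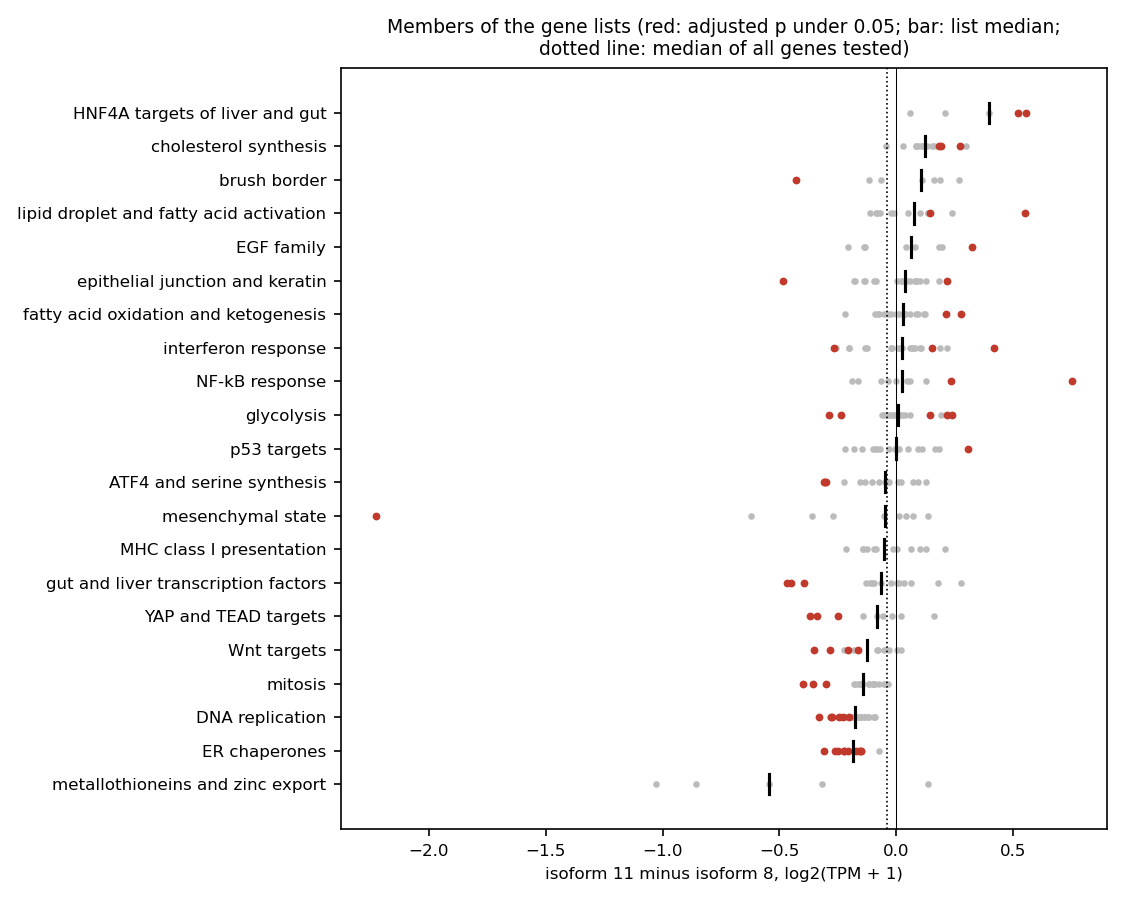
Difference on the log2(TPM + 1) scale of each tested member of the gene lists, in red at an adjusted p under 0.05, with the list median (bar) and the median of all tested genes (dotted line, -0.04). The members of the endoplasmic reticulum chaperone, DNA replication and mitosis lists all lie left of 0, and VIM stands alone at -2.23.

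The 6 libraries had between 28052 and 28619 rows above 0 TPM, and read depth is unknown from TPM. Colorectal epithelial markers summed to 3950 to 4195 TPM in isoform 11 and 4097 to 4469 TPM in isoform 8. The sums of leukocyte (17.0 to 19.1 and 17.1 to 17.9 TPM), fibroblast (9.99 to 12.9 and 9.00 to 12.7 TPM), endothelial (4.18 to 5.50 and 3.74 to 4.28 TPM) and hepatocyte markers (1.66 to 2.09 and 1.37 to 1.61 TPM) were low and overlapped between the lines, except the last, which were higher in isoform 11, and CD3E and LUM were listed at 0 throughout. Transcripts of the mitochondrial genome took 8.60, 7.10 and 7.80% of TPM in isoform 11 and 3.74, 9.21 and 4.75% in isoform 8, so the isoform 8 libraries were unequal. With those transcripts left out 27 genes were called (6 higher, 21 lower), 25 of the 26 among them, and TRNH was the gene removed.

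Small differences were not spread evenly along the chromosomes. Of 236 windows of 10 Mb with at least 20 tested genes, 4 had a median difference under -0.15 and 0 over 0.15. Between 60000001 on chromosome 14 and the last tested gene there, a stretch chosen after its values were seen, 87 of 239 genes fell (36.4%) and 4 rose, against 8.7% of the other genes that fell. The median was -0.15 in that stretch and -0.04 elsewhere. Relative to the parental mean, its median was -0.09, -0.05 and -0.11 in the isoform 11 libraries and 0.07, 0.02 and 0.12 in the isoform 8 libraries, beside medians over all genes of -0.04, -0.03 and -0.09, and of 0.00, -0.03 and 0.01. The isoform 11 values lay slightly below those of all genes, and the isoform 8 values lay above them. PDGFC lies in another of these windows, chromosome 4 from 150000001 to 160000000, whose 25 genes had a median of -0.22 between isoforms 11 and 8, 0.85 between isoforms 10 and 7 and 0.555 between isoforms 12 and 9. The part of such regional shifts in the result for PDGFC was not tested.

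Promoters were searched for the HNF4 response motif CAAAGTCCA on both strands, in RefSeq windows from 250 bases before to 50 after a gene's start (GRCh38.p14). It was present in 135 of 35116 promoters (0.384%) and in 48 of 15051 promoters of tested genes (0.319%). Of promoters of genes that rose at an adjusted p under 0.05, 3 of 562 held it (0.534%), and of those that fell 0 of 1496. Of 29 promoters of 18 matched genes that were called or named by rule, 0 held the motif. Among the genes named here CIDEB alone held it, and its promoter is shown for that reason. RefSeq gives CIDEB more than 1 start, and the motif is at an inner start, on the minus strand at chr14:24307928-24308227, with the motif in capitals as its reverse complement TGGACTTTG.
CIDEB: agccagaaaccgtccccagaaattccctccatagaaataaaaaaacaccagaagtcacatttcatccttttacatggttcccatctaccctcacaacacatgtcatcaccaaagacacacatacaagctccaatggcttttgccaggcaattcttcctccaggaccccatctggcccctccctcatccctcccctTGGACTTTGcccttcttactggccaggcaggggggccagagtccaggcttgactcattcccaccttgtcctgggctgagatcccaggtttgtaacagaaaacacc
The match starts at position -55 from that inner start. It is a match of letters only, and the files hold no binding data.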

How the data were processed

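Polyadenylated RNA was sequenced with a library kit that preserves strand, per the labels' protocols. The submitters' processing notes name Trimmomatic 0.36, FastQC 0.11.5, kallisto 0.44.0, DESeq2 1.22.2 and GRCh38.p12, with no role given. The authors deposited TPM per gene for each library, with sums between 999979.3 and 999985.4 in the 6 libraries. Per the file headers, each isoform's table also lists what the authors computed against parental cells: a mean signal of normalised counts, log2 fold changes, standard errors and p-values. These entered no fit. That signal averages the line and the parental libraries after normalisation and does not give a library's depth, so depth is unknown and no interval for counting error is given.

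TPM are not counts, so log2(TPM + 1) was fitted in limma 3.58.1 (R 4.3.3; lmFit, then eBayes with trend), in which differences of low genes are understated. Rows entered from 1 TPM upward on average across the 39 libraries, with 13 group means and 26 residual degrees of freedom. P-values were adjusted by Benjamini-Hochberg over all genes of a comparison, and 5 comparisons were made. Called genes also had an absolute log2 difference of at least 1. The procedure was tested on simulated data.

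Named genes were HNF4A, the 12 largest differences per direction among called genes without overlap and with at least 2 TPM in the higher line (filled by adjusted p where fewer were called; short RNAs, pseudogenes by name, antisense and clone names left out), and up to 4 members per list that passed. That name pattern also left out RPGRIP1 and IGF2BP3. Members and lists were chosen with earlier results of these data known. Replicate numbers did not pair the libraries. Coordinates are from GENCODE on GRCh38. Alternatives were the pseudocount, the filter, the scaling, the fold minimum, the libraries fitted, a replicate block, and each library left out. Added after seeing the data were leaving out mitochondrial transcripts and replicate 1 of isoform 3. N-terminal sequences of the isoforms were not used here.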

Additional observations from a re-analysis of the deposited data

Results flagged for a closer look

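In 11 of the genes named by rule, the difference between isoforms 11 and 8 differed from that between isoforms 12 and 9 and from that between isoforms 10 and 7 (limma test of the difference of differences, each called). Values are isoform 11 minus 8 less the other pair, with the isoform 12 and 9 pair first, on the log2(TPM + 1) scale. VIPR1 had 2.61 and 1.29, and FAM25A 2.32 and 2.09, both above 0. The other 9 genes were below 0. RERG had -5.07 and -3.80, VIM -4.55 and -3.87, PDGFC -4.04 and -3.71 and FGF13 -3.73 and -3.72. MKX had -2.85 and -2.94, SUCNR1 -2.81 and -3.49, ESRG -2.07 and -1.09, VCAN -2.03 and -1.27, and CAVIN2 -1.18 and -2.96. The genes were named for their difference between isoforms 11 and 8, which is part of each value.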

How the results depend on the processing

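The 26 genes called between isoforms 11 and 8 became 60 with a pseudocount of 0.1, 15 at a 5 TPM filter and 1794 without a minimum fold. For isoforms 10 and 7 (114) these counts were 244, 59 and 3833, for isoforms 12 and 9 (81) they were 188, 44 and 2501, for the difference from the isoform 10 and 7 pair (231) they were 429, 128 and 3338, and for that from the isoform 12 and 9 pair (209) they were 362, 101 and 3004. Of the 26 genes 24 were shared at a pseudocount of 0.1 and all 15 that entered at 5 TPM. With 1 library of the pair left out (of isoforms 11 and 8 for the differences between pairs) the counts were 18 to 32, 107 to 120, 82 to 95, 217 to 250 and 200 to 220 in that order. Same-numbered libraries of isoforms 11 and 8 had correlations of their deviations of -0.099, -0.083 and -0.044, so the numbers do not pair these lines. Whether they mark a shared effect in other groups was not tested. A replicate block gave 31 genes in the 33 numbered libraries and 13 in the 6 libraries of the lines, where few degrees of freedom remain. At an adjusted p alone the 33 libraries gave 699 higher and 1718 lower genes with that block. Of the list members named here VIM and IL32 alone passed with it in the 6 libraries. For HSPA1B the block over the 33 libraries gave an adjusted p of 0.000116 in limma. HSPA1B was lowest in replicate 1 in the parental cells (259, 396 and 379 TPM) and in isoforms 1, 2, 6, 7, 9, 10, 11 and 12. In isoforms 3 and 8 it was highest in replicate 1. The difference of HNF4A (-0.26) passed at an adjusted p of 0.0193 when only the 6 libraries were fitted and of 0.0111 without replicate 1 of isoform 3, and ranged from -0.29 to -0.23 with 1 library left out. Split by direction, the calls were 4 higher and 22 lower, 9 and 23 with only the 6 libraries, and 10 and 22 without replicate 2 of isoform 8. Over the named genes and alternatives no difference reversed, 976 values stayed on their side of the adjusted p and 248, in 68 of 83 genes, no longer passed. Depth limits what can be said of genes near 0 TPM.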
